A study of Mus musculus with 6 samples.

Results

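Bivalent H3K4me3 peaks are stretches of chromatin that carried both H3K4me3, a mark of active promoters, and H3K27me3, a mark of repression, in wild-type mouse colonic organoids grown without TNFα (wt). They were selected on the peak calls themselves: a wt H3K4me3 peak on 1 of the 19 autosomes was counted as bivalent when at least 50% of its bases lay under wt H3K27me3 peaks. By this rule 664 of the 11233 autosomal wt H3K4me3 peaks were bivalent, and 10569 were not. The list held 11552 H3K4me3 peaks over all chromosomes. Their state was then read in organoids exposed to TNFα (wt+TNFα), as both marks kept, H3K4me3 only, H3K27me3 only or neither, with the same limit of 50% of the bases of the wt peak.

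The organoids were epithelial cultures from the colon of C57BL/6 mice, and the wt+TNFα organoids were such cultures kept with 40 ng/ml TNFα for 3 weeks. Both were grown, per the study's methods, in conditioned medium with Wnt3a, R-spondin and Noggin and with inhibitors of ROCK, TGF-β receptors and p38. ChIP-seq gave 1 H3K4me3 library, 1 H3K27me3 library and 1 input per condition, with a labelled depth, in units of 1000000 reads, of 40 for H3K4me3 and input and of 60 for H3K27me3. With 1 library per mark and condition there is no replicate error, so every share below is a description without a test.

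H3K4me3 is laid down at promoters by Trithorax-type methyltransferases, and H3K27me3 by the Polycomb repressive complex PRC2. Both favour CpG-rich promoters. Promoters that carry both marks are best known from embryonic stem cells, where many belong to regulators of development that are transcribed little or not at all, and they are usually described as resolving to 1 of the marks when a cell commits to a lineage. A bulk ChIP-seq signal of both marks can come from the same chromatin fragment or from different alleles or cells, and these lists cannot tell those apart.

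The 4 peak lists differed in ways that bear on the counts. On the autosomes the 30347 wt H3K27me3 peaks spanned 101 Mb and the 48962 wt+TNFα peaks 228 Mb, whereas the H3K4me3 lists spanned 17.8 Mb and 19.5 Mb. The file name of the wt+TNFα H3K27me3 list alone lacks a mention of a spike-in, and the study's reporting summary gives more reads for the wt+TNFα H3K4me3 library and the wt+TNFα input than for those of wt, and more than the labelled depth for most libraries. The conditions also differed on the sex chromosomes: wt H3K27me3 peaks spanned 0.597 Mb of the X chromosome against 74.7 Mb with TNFα, and of the Y chromosome 3 wt H3K4me3 peaks were listed against 0 with TNFα. The part of the spike-in, the reads and the sex chromosomes in the results was not tested, and the states with lists of equal length are given with the counts below. The lists do not give the reads behind a peak. With 1 library per mark and condition, TNFα and any other difference between the cultures, such as the sex of the mice they came from, cannot be told apart at any peak below. As a check of the label, all 12 markers of colonic epithelium, among them Epcam, Cdh1, Krt8 and Cdx2, had H3K4me3 without H3K27me3 at the promoter in wt. In wt+TNFα 11 did, and Krt20 had no peak. None of the 9 fibroblast and smooth muscle, 7 immune, 5 endothelial or 6 neuronal and glial markers had H3K4me3 in either condition.

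The bases under these peaks were rich in CpG. To show this, 150 bp free of annotated exons are printed for 8 peaks, which are among those that lead each state by the strength or width of their wt peak. The sequence is that of the GRCm38.p6 reference, which has the coordinates of mm10, written 5′ to 3′ along the strand of the gene with every CpG in capitals. The first 3 belonged to peaks with H3K4me3 only in wt+TNFα and lie upstream of the annotated gene. Evx2 and Hoxd13 are homeobox genes at the posterior end of the Hoxd cluster, and Foxj1 encodes the regulator of motile cilia.
Evx2 (chr2:74659558-74659707, minus strand): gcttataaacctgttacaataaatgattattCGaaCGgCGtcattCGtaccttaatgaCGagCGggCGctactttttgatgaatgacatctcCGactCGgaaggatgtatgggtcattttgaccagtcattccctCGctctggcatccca
Hoxd13 (chr2:74668160-74668309, plus strand): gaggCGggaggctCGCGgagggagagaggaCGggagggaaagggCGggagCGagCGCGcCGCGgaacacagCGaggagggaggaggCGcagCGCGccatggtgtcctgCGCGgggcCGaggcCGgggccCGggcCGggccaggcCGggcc
Foxj1 (chr11:116335569-116335718, minus strand): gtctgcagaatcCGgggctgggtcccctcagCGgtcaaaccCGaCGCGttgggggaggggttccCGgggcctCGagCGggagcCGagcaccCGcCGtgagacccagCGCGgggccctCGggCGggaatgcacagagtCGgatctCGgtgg
The next 2 belonged to peaks with H3K27me3 only in wt+TNFα. Fgf9, an FGF ligand, and Plekhh2 are shown in an intron.
Fgf9 (chr14:58074965-58075114, plus strand): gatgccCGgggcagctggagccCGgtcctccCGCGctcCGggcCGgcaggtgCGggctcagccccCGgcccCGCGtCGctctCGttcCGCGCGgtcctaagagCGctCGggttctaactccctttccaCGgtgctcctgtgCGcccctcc
Plekhh2 (chr17:84512046-84512195, plus strand): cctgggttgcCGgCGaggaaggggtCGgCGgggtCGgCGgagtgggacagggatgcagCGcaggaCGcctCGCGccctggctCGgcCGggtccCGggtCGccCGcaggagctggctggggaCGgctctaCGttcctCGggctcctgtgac
The last 3 belonged to peaks that kept both marks. The stretches of Igf1r, the receptor of insulin-like growth factor, and of the forkhead gene Foxc1 are upstream of the gene, and that of Dach1, a regulator of eye and limb development, is in an intron.
Igf1r (chr7:67952089-67952238, plus strand): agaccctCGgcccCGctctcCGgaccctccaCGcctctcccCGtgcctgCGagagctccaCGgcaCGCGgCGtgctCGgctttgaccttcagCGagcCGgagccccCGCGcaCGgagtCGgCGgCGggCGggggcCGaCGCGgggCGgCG
Dach1 (chr14:98168333-98168482, minus strand): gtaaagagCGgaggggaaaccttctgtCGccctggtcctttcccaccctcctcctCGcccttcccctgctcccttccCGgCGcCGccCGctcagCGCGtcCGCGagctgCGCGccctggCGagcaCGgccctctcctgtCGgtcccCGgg
Foxc1 (chr13:31806483-31806632, plus strand): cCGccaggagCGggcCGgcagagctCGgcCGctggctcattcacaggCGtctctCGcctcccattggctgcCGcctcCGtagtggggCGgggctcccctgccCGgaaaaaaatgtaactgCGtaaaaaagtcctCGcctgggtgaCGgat
These stretches held between 10 CpG (Evx2) and 25 CpG (Igf1r), and their GC content was 45.3% at Evx2 and 80.0% at Hoxd13, the lowest and the highest.

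Over all 664 peaks the 500 bp around the summit had a median GC content of 72.2%, against 64.8% for the other wt H3K4me3 peaks. The ratio of observed to expected CpG was 0.881 against 0.779. Windows with at least 50% GC and a ratio of at least 0.6, the usual definition of a CpG island, made up 96.2% of the bivalent peaks (639) and 76.8% of the others. The gap was wider among weak H3K4me3 peaks: in the 30% of wt H3K4me3 peaks with the lowest −log10 q, 95.8% of 576 bivalent peaks and 42.4% of 2794 others met the definition. It was also wide away from promoters, with 92.3% of 52 bivalent peaks and 26.9% of 804 others. By state the share was 97.7% of the peaks that kept both marks, 92.3% of those with H3K4me3 only and 95.3% of those with H3K27me3 only.

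A TATA box and the motifs of 2 factor families that act downstream of TNFα were searched on both strands of the same windows. A match describes the letters and is not a binding site. TATAAA stood in 3.31% of the bivalent windows and 5.90% of the other windows, and by state in 1.64% of those that kept both marks, 5.38% of those with H3K4me3 only and 7.55% of those with H3K27me3 only. The AP-1 motif TGANTCA was found in 3.77% against 5.89%, and by state in 2.34%, 6.15% and 6.6%. The NF-κB motif (GGG, any 2 bases, TTTCC) was found in 2.11% against 2.57%, and in 2.55% of all windows. By state it was found in 11 of 428, 1 of 130 and 2 of 106 windows.

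Most bivalent peaks kept both marks with TNFα. Both marks were found at 428 of 664 peaks (64.5%), H3K4me3 only at 130 (19.6%), H3K27me3 only at 106 (16.0%) and neither at 0. Over all 11233 wt peaks the same states took 4.83%, 91.5%, 1.25% and 2.47%. Over all wt peaks, 96.3% had at least 50% of their bases under wt+TNFα H3K4me3 and 6.08% under wt+TNFα H3K27me3. With the wt+TNFα H3K27me3 list limited by −log10 q to the covered length of the wt list, 58.3% kept both marks and 25.8% had H3K4me3 only, and with equal numbers of H3K4me3 peaks 61.9% kept both marks. The rule used wt H3K27me3, so nothing is read from the higher share of members with H3K27me3 in wt+TNFα. Of the 10569 other peaks, 115 (1.09%) had both marks in wt+TNFα, 34 (0.322%) H3K27me3 only and 277 (2.62%) neither.

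**Figure D1:**
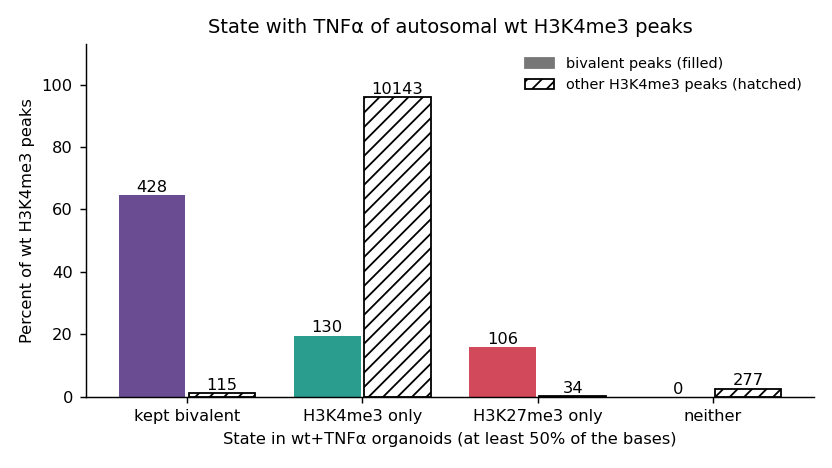
Percent of autosomal wt H3K4me3 peaks (y axis) in each state in wt+TNFα organoids (x axis), for the 664 bivalent peaks (filled bars) and the 10569 other peaks (hatched bars), with the number of peaks over each bar. Both marks were kept at 64.5% of the bivalent peaks, and 96.0% of the others had H3K4me3 only.

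The wt H3K27me3 cover that chose the peaks was complete at 545 of the 664 (82.1%). Another 167 H3K4me3 peaks had some cover under the limit, and 98.4% of the other peaks had no base under H3K27me3. Near the limit of 50%, 40 peaks had a cover of 40% to 50% and stayed out, and 29 had 50% to 60% and came in. Just outside were Atp1b2 at 48.8%, Maf at 49.1% and Klf2 at 49.4%, and just inside Zfpm1 at 50.6%, Slain1 at 50.8% and Aplp1 at 50.9%. In wt+TNFα the 3 inside peaks had H3K4me3 only, as did Maf, while Klf2 had both marks and Atp1b2 H3K27me3 only.

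Bivalent H3K4me3 peaks were narrower and weaker than the others, and the rule favours narrow peaks, which are more easily covered. Their median width was 720 bp against 1466 bp for the other peaks, and 23% were under 500 bp wide against 4.25%. The median fold enrichment over the local background was 9.61 against 26.2. Rdx, which encodes the membrane linker radixin, had the highest fold of the coding genes at 39.1 in a peak of 1604 bp, and it kept both marks. The widest peaks were at Evx2 with 3987 bp, at Bcl11a, a zinc finger repressor, with 3914 bp and at Hoxd13 with 3715 bp, and all 3 had H3K4me3 only in wt+TNFα. The H3K27me3 peaks over the members had a median width of 6234 bp, a measure that the rule favours, since a wide peak covers more, and 652 of the 30347 wt H3K27me3 peaks (2.15%) carried a member. Of the 1775 H3K27me3 peaks of at least 10000 bp, 186 (10.5%) did. Of all autosomal wt H3K27me3 peaks 12.8% had a −log10 q of at least 2, and among the bivalent peaks the overlying H3K27me3 peak was under 2 at 22.4%.

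The state with TNFα went with the strength of both marks in wt, as the plot of the members' −log10 q shows. Of the 166 peaks with the lowest wt H3K27me3 −log10 q (0.401 to 2.17), 39.2% had H3K4me3 only in wt+TNFα, and of the 166 with the highest (6.07 to 17.8) 8.43% did. Of the 166 peaks with the lowest wt H3K4me3 −log10 q (7.43 to 20.3), 36.1% had H3K27me3 only in wt+TNFα, and of the 166 with the highest (64.6 to 244) 3.61% did. Peaks with H3K27me3 only had a median wt H3K4me3 width of 477 bp and a fold of 6.80, against 720 bp and 9.83 for those that kept both marks and 874 bp and 12.3 for those with H3K4me3 only. Weak H3K4me3 peaks were also kept less often outside the bivalent set: in the weakest 10% of all wt H3K4me3 peaks by −log10 q, less than 50% of the bases were under wt+TNFα H3K4me3 at 31.0% of 258 bivalent peaks and at 27.7% of 866 others. In the next 10% the shares were 8.76% and 5.52%, and in the 10% after that 4.95% and 1.08%.

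**Figure D2:**
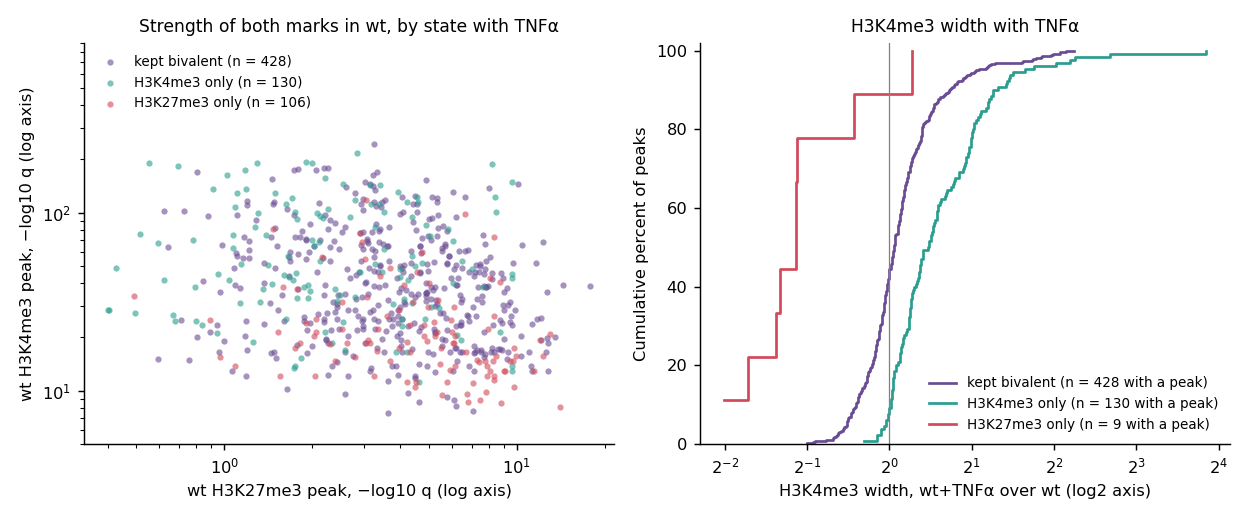
Left, −log10 q of the wt H3K4me3 peak (y axis, log) against that of the wt H3K27me3 peak over it (x axis, log) for the 664 bivalent peaks, with 1 point per peak coloured by its state in wt+TNFα. Right, cumulative percent of peaks (y axis) by the ratio of H3K4me3 peak width in wt+TNFα to wt (x axis, log2), where the curve of the 130 peaks with H3K4me3 only lies to the right of that of the 428 peaks that kept both marks.

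Of the 130 peaks with H3K4me3 only, 90.8% were under a wider H3K4me3 peak in wt+TNFα, against 73.3% of the other wt H3K4me3 peaks. The ratio of its width in wt+TNFα to wt had a median of 1.38 over the 130 peaks with H3K4me3 only, 1.04 over the 428 that kept both marks and 1.07 over the other wt H3K4me3 peaks. Weak peaks widened outside the bivalent set too: in the weakest 10% of wt H3K4me3 peaks by −log10 q the median ratio was 1.25 for bivalent and 1.25 for other peaks, and in the third weakest 10% it was 1.04 and 1.08. The ratio was at least 1.5 at 40.0% of the peaks with H3K4me3 only, 13.1% of those that kept both marks and 5.21% of the others. The rank of the fold within its own list moved the same way, from a median of 19.5% in wt to 32.7% in wt+TNFα for H3K4me3 only, against 14.3% and 14.0% where both marks stayed and 52.8% and 55.5% for the others. These ratios come from the same contrast as the state and are given as a description. A wide wt+TNFα peak can span more than 1 wt peak.

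Cover of the flanks is given as a description, since the states were set by wt+TNFα cover at the peak between them. At 2000 bp on either side of the centre of the peak, wt H3K27me3 peaks covered 68.6% of the sites that kept both marks, 46.9% of those with H3K4me3 only and 69.8% of those with H3K27me3 only. In wt+TNFα the same positions were covered at 77.6%, 22.0% and 86.3%. At 5000 bp the wt+TNFα cover was 53.0%, 19.6% and 67.0%, against 32.6%, 27.3% and 37.7% in wt. Around the other H3K4me3 peaks it was 3.14% in wt and 6.66% in wt+TNFα at that distance, so cover was higher in wt+TNFα there too. At 20000 bp from peaks with H3K4me3 only, 12.7% were covered in wt and 16.6% in wt+TNFα.

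**Figure D3:**
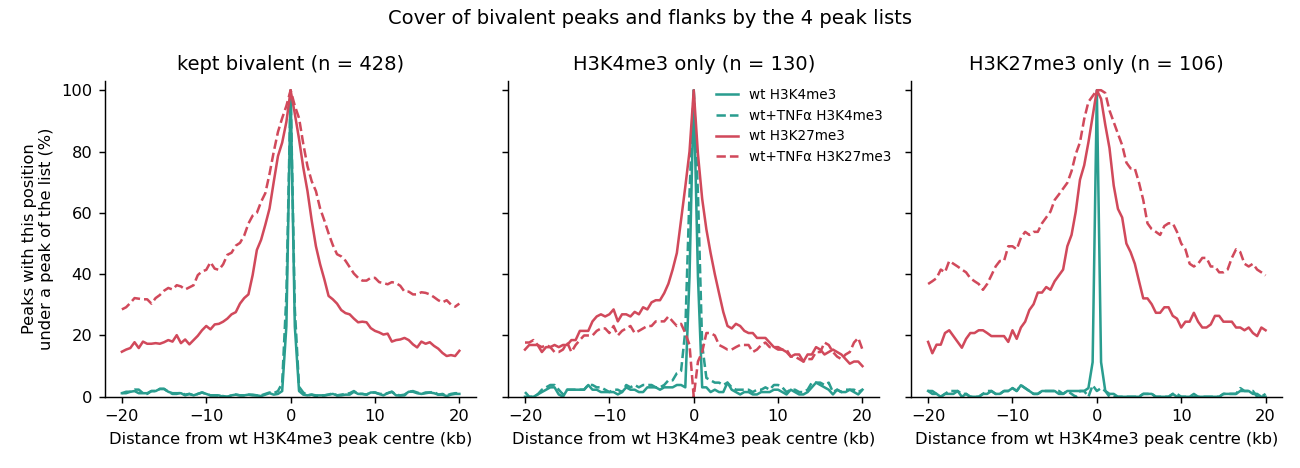
Percent of bivalent peaks (y axis) whose position at a given distance from the centre of the wt H3K4me3 peak (x axis, kb) lay under a peak of each list, in 3 panels by state in wt+TNFα. Solid lines are wt and dashed lines wt+TNFα, green is H3K4me3 and red H3K27me3; in the middle panel the dashed red line dips to 0 at the centre and is at 22.0% at 2000 bp.

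Nearly all bivalent peaks lay at promoters, at a share close to that of the other H3K4me3 peaks. Of the 664, 612 (92.2%) overlapped a window of 1000 bp on either side of a transcript start, against 92.4% of the others. A start lay inside the peak at 80.7% against 89.0%. Peaks shared by the promoters of at least 2 protein-coding genes were 4.22% of the bivalent and 12.3% of the other peaks. In all, 613 protein-coding genes had a bivalent peak at the promoter, 2.95% of the 20780 on the autosomes, and 399 of them kept both marks, 119 had H3K4me3 only and 95 H3K27me3 only. The 52 peaks away from promoters were in coding genes at 27 sites and outside them at 25. By chromosome the share of H3K4me3 peaks that were bivalent ran from 4.19% on chromosome 17 to 8.24% on chromosome 9.

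Regulators of development had bivalent peaks at a higher share than coding genes in all. Of 303 genes in the lists of developmental transcription factors, 34 (11.2%) had a bivalent peak, against 2.95% of all coding genes, and they were 41% of the list's genes with H3K4me3 against 5.70%. With TNFα 20 of the 34 kept both marks, 8 had H3K4me3 only and 6 H3K27me3 only, shares near the 64.5%, 19.6% and 16.0% of all bivalent peaks. Most genes of these lists had H3K27me3 in wt (240 of 303, 79.2%, against 22.3% of all coding genes) and few had H3K4me3 (83). The rule needs H3K27me3, so a list rich in it is favoured. Set against the genes with H3K27me3, the bivalent genes were 34 to 240 here and 613 to 4637 over all coding genes, which are similar proportions. The same limit applies to the shares of the gene lists below. No bivalent peak was found at the 79 ribosomal protein genes, the 47 proteasome genes, the 28 genes of the NF-κB pathway, the 30 absorptive colonocyte genes or the 34 goblet, enteroendocrine and tuft cell genes. Of those 34, 1 had H3K4me3 in wt and 18 had H3K27me3.

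**Figure D4:**
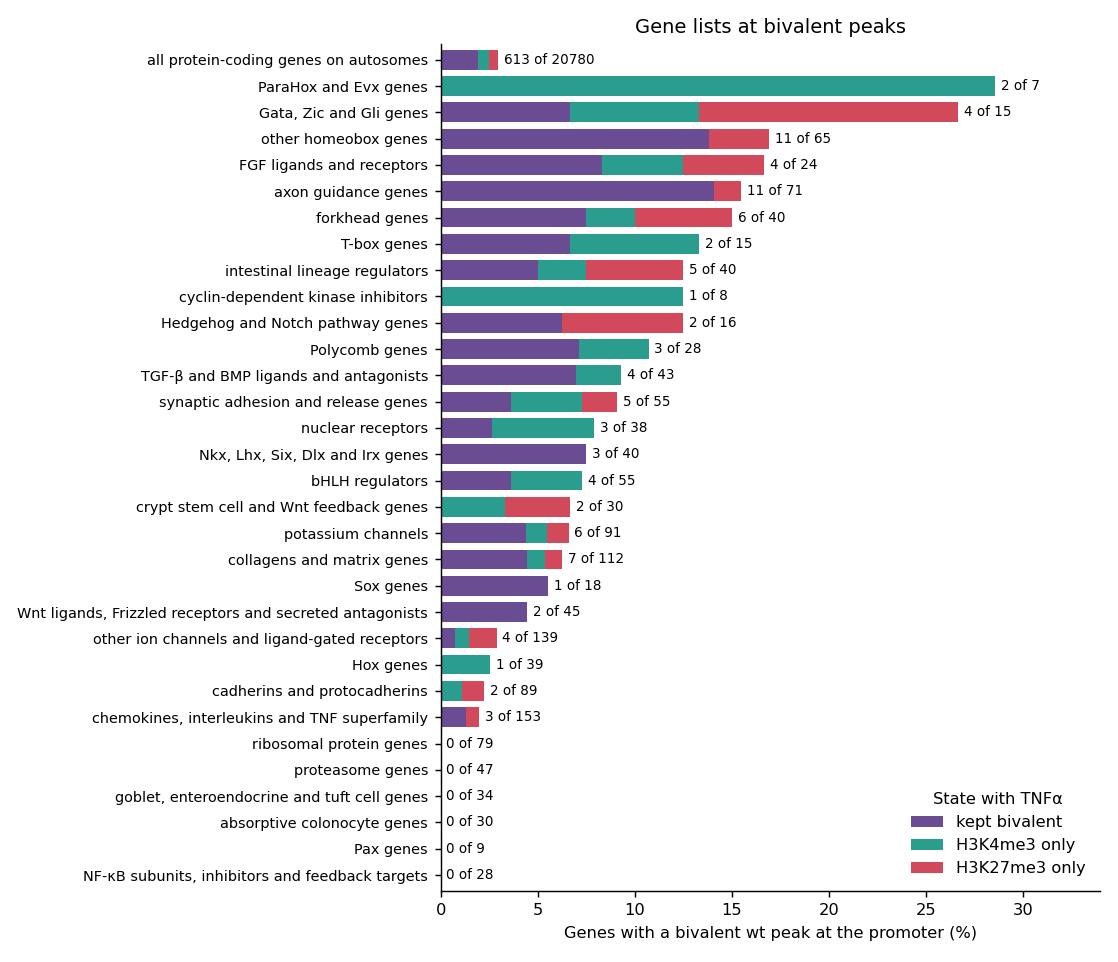
Percent of the genes of each list with a bivalent wt peak at the promoter (x axis), by list (y axis), split by the state in wt+TNFα, with the number of genes beside each bar. All protein-coding genes are in the top row at 2.95%, and 2 of 7 ParaHox and Evx genes, 4 of 15 Gata, Zic and Gli genes and 11 of 65 other homeobox genes lie highest among the lists drawn, which leave out the genes that the study names.

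Among the widest peaks that kept both marks, that of Igf1r was 2727 bp in wt and 2973 bp in wt+TNFα with folds of 25.1 and 35.6, and that of Dach1 was 2533 bp and 2055 bp with folds of 8.25 and 8.24. Of 65 homeobox genes outside the named families 11 (16.9%) had a bivalent peak. Of these, 9 kept both marks, against 64.5% of all bivalent peaks, and 2 had H3K27me3 only. Meis2, a cofactor of Hox proteins, had an H3K4me3 peak of 1311 bp in wt and 1361 bp in wt+TNFα, under H3K27me3 peaks of 21612 bp and 23661 bp. Pou4f1, a factor of sensory neurons, had H3K4me3 widths of 1190 bp and 985 bp. Isl1, a LIM homeobox factor of endocrine and motor neuron lineages, kept both marks while its H3K4me3 peak went from 782 bp to 2691 bp and its H3K27me3 peak from 12532 bp to 9364 bp. Six4 and Irx3 also kept both marks, and their H3K27me3 peaks were 8899 bp and 20188 bp wide in wt.

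Of 39 Hox genes 1, Hoxd13, had a bivalent peak (2.56%, against 2.95% of all coding genes). Of 11 Hoxa genes 10 had H3K4me3 and 0 had H3K27me3 in wt, and all 9 Hoxc genes had H3K27me3 and 0 had H3K4me3. Of 10 Hoxb genes 2 had H3K4me3 and 8 H3K27me3 in wt, and 4 and 5 did with TNFα. Hoxd13 and its neighbour Evx2 lay under 1 wt H3K27me3 peak of 130377 bp (chr2:74643446-74773822), the widest that carried a member. It held 5 bivalent H3K4me3 peaks, and all 5 had H3K4me3 only in wt+TNFα. There a stretch of 22665 bp over both genes was free of H3K27me3 peaks, and the H3K4me3 peak of Hoxd13 was 7280 bp wide with a fold of 38.5, against 3715 bp and 24.7 in wt. The peak of Evx2 went from 3987 bp to 7137 bp. Evx1, which lies beside the Hoxa cluster, had H3K4me3 only as well, with widths of 1073 bp and 1543 bp. In all, 9 wt H3K27me3 peaks carried at least 2 members (21 in total), and in 8 of the 9 the members shared 1 state. Members of the same domain can lie under the same wt+TNFα peaks, so their states are not independent. The exception was at Nrp2, a receptor of semaphorins and VEGF, where the promoter peak kept both marks and a second peak had H3K27me3 only.

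**Figure D5:**
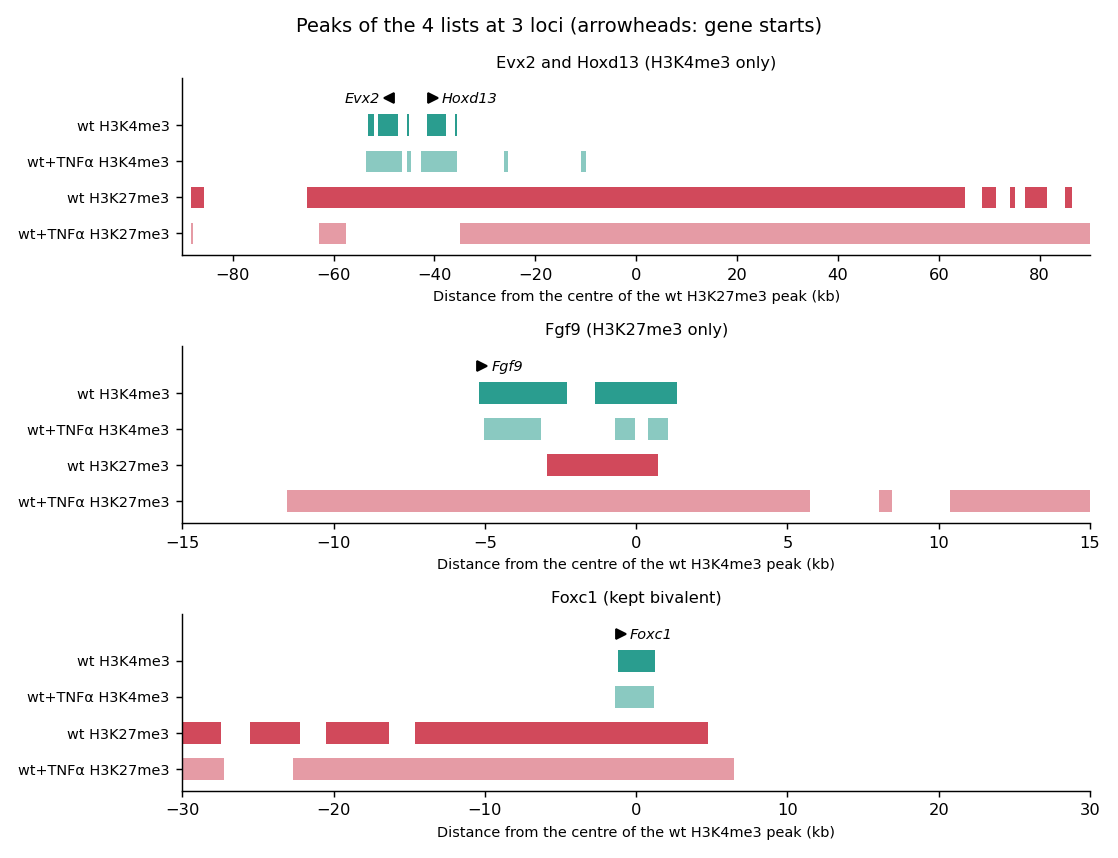
Peaks of the 4 lists (rows) by distance in kb (x axis) from the centre of the wt H3K27me3 peak at Evx2 and Hoxd13 and from the centre of the wt H3K4me3 peak at Fgf9 and Foxc1, with arrowheads at the gene starts. At Evx2 and Hoxd13 the wt+TNFα H3K27me3 row is empty over 22665 bp, at Fgf9 it is longer than in wt (17288 bp against 3672 bp), and at Foxc1 both marks overlap in both conditions.

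The bivalent forkhead genes and the Gata, Zic and Gli genes included all 3 states, and the T-box genes 2 of them. Foxc1, a factor of mesoderm and the eye, kept both marks, with H3K4me3 folds of 9.46 in wt and 10.3 in wt+TNFα. Foxj1 had folds of 23.5 and 19.2, and its H3K27me3 cover was 100% in wt and 25.9% in wt+TNFα. Foxf1 and Foxl2 had weak wt H3K4me3 peaks, with folds of 5.18 and 4.61, and no H3K4me3 in wt+TNFα. Gata4, a factor of the small intestine and heart, had a wt fold of 7.02 under an H3K27me3 peak of 37663 bp and likewise no H3K4me3 in wt+TNFα. Gata3, a factor of T cells and several epithelia, kept both marks with folds of 10.9 and 10.5. Eomes, a T-box factor, was classed as H3K4me3 only with a wt+TNFα H3K27me3 cover of 46.2%, close to the limit.

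Of 40 regulators of intestinal lineages 5 (12.5%) had a bivalent peak, and of 30 crypt stem cell and Wnt feedback genes 2 (6.67%) did, against 2.95% of all coding genes. Of the 5, 2 kept both marks, Isl1 and the corepressor gene Cbfa2t3, whose H3K4me3 peak was 1104 bp in wt and 1813 bp in wt+TNFα under full H3K27me3 cover, 1 had H3K4me3 only and 2 H3K27me3 only. The 2 genes of the crypt list had H3K4me3 only and H3K27me3 only. Over all bivalent peaks 64.5% kept both marks, 19.6% had H3K4me3 only and 16.0% H3K27me3 only. Atoh1, which drives secretory fate, had an H3K4me3 peak of 1552 bp in wt and 2895 bp in wt+TNFα, with folds of 10.8 and 20.4, while its H3K27me3 cover went from 74.4% to 45.1%, just under the limit. Ascl2, a regulator of crypt stem cells, had folds of 10.8 and 11 and an H3K27me3 cover of 76.5% in wt and 0% in wt+TNFα. Its wt H3K27me3 peak was a weak call, with a −log10 q of 1.88. Nkd1, a feedback inhibitor of Wnt signalling, went the other way, with a wt H3K4me3 fold of 5.36 and no H3K4me3 peak in wt+TNFα. Insm1, an enteroendocrine factor, had H3K4me3 peaks of 642 bp in wt and 779 bp in wt+TNFα, with folds of 5.81 and 3.26. The wt+TNFα peak was displaced and overlay 46.7% of the wt peak, close to the limit, so Insm1 was classed as H3K27me3 only. Its wt+TNFα H3K27me3 peak was 54127 bp wide.

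Of 24 FGF ligands and receptors 4 had a bivalent peak (16.7%, against 2.95% of all coding genes), 2 with both marks kept, 1 with H3K4me3 only and 1 with H3K27me3 only, against 64.5%, 19.6% and 16.0% of all bivalent peaks. Fgfr2, an FGF receptor, had H3K4me3 folds of 17.6 and 36.5 and no H3K27me3 in wt+TNFα. Fgfr3 kept both marks with folds of 15.6 and 10.3. Fgf9 had a wt+TNFα H3K4me3 cover of 48.5%, just under the limit, and its fold was 22.5 in wt and 5.43 in wt+TNFα. This peak lies inside the gene, and another H3K4me3 peak at the annotated start of Fgf9 was listed in both conditions and lay under the wt+TNFα H3K27me3 peak. In the Hedgehog pathway Smo, the signal transducer, kept both marks, and Ptch1, the receptor that inhibits it, had H3K27me3 only. Of 4 bivalent TGF-β and BMP genes, Bmp3 had H3K4me3 only, with widths of 851 bp and 1660 bp, and Gdf11, Chrd and Bmp1 kept both marks. Of 71 axon guidance genes 11 had a bivalent peak (15.5%), and both marks were kept at 10 of the 11, against 64.5% of all bivalent peaks. Among these 10 were the semaphorins Sema4c and Sema3f, the ephrins Efna2 and Efna3 and the receptors Nrp2 and Plxnd1.

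Genes of channels, matrix and signalling outside the epithelium were counted in the same way. Against the 2.95% of all coding genes with a bivalent peak and the 64.5% of bivalent peaks with both marks kept, 6 of 91 potassium channels (6.59%) had a bivalent peak, and 4 of the 6, Kcng3, Kcnmb4, Kcnh3 and Kcna7, kept both marks. Kcnk6, a background channel, had H3K4me3 only with folds of 8.63 and 19.7, and Kcnma1, the large calcium-activated channel, had H3K27me3 only with 45.8% of its H3K4me3 cover left. Of 139 other ion channels and ligand-gated receptors 4 (2.88%) had a bivalent peak. Both marks were kept at 1 of the 4. Of 112 collagens and matrix genes 7 (6.25%) were bivalent, with 5 that kept both marks. H3K27me3, which the rule needs, was at 72.5% of the potassium channels and 71.4% of the matrix genes in wt, against 22.3% of all coding genes. Set against the genes with H3K27me3, the bivalent genes were 6 to 66 and 7 to 80. Over all coding genes they were 613 to 4637, a higher proportion. Adamts15, a matrix protease, had H3K4me3 only, with widths of 1164 bp and 2705 bp and folds of 6.32 and 27.4, and Thbs1, an adhesive glycoprotein, had H3K27me3 only with a cover of 52.8%, near the limit. Of 153 chemokines, interleukins and TNF superfamily genes 3 (1.96%) were bivalent: Il6ra, the receptor of IL-6, and Il11 kept both marks, and the chemokine receptor Ccr9 had H3K27me3 only. Of 28 Polycomb genes 3 (10.7%) were bivalent, and Epop and Phc2 kept both marks.

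The peaks with H3K27me3 only were mostly without any H3K4me3 base in wt+TNFα, at 97 of 106 (91.5%). The 9 with some left had a median width ratio of 0.454. At Plekhh2, 45.4% of the wt H3K4me3 peak was still under H3K4me3, near the limit, with folds of 17.6 and 5.78. Zbtb16, which encodes the zinc finger protein PLZF, had a wt fold of 17.0 and no H3K4me3 peak in wt+TNFα, where an H3K27me3 peak of 87226 bp replaced that of 5772 bp. Rims4, a synaptic release protein, Mgll, the lipase of monoacylglycerols, and Ror1, a Wnt5a receptor, also had no H3K4me3 peak in wt+TNFα, from wt folds of 15.8, 14.4 and 13.8. Over all 106 peaks the wt+TNFα H3K27me3 peak had a median width of 14961 bp, against 6797 bp in wt. Where both marks stayed the medians were 10536 bp and 6660 bp. Both states need wt+TNFα H3K27me3 cover, which favours wide peaks. Over the whole autosomal H3K27me3 lists the median width was 2209 bp in wt+TNFα and 1778 bp in wt.

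The peaks with H3K4me3 only had no base under H3K27me3 in wt+TNFα at 100 of 130 sites (76.9%), and the other 30 kept less than 50%. Their wt H3K27me3 was weaker, with a median −log10 q of 2.19 against 3.97 where both marks stayed, and it was under 2 at 45.4% of them against 18.2%. At Nbea, a vesicle trafficking protein, the wt H3K27me3 fold was 3.81, in the highest part of its list at a rank of 98.9%, and no H3K27me3 peak was left in wt+TNFα. Its H3K4me3 folds were 20.6 and 37.0. Nr4a1, an early response nuclear receptor, had H3K4me3 widths of 473 bp and 1487 bp, and Rarg, a retinoic acid receptor, of 608 bp and 1038 bp. Their wt H3K27me3 peaks were weak calls, with −log10 q of 1.75 and 0.944, as were those at Evx1 and Kcnk6, with 1.13 and 1.94. Glis2, a Gli-like zinc finger factor, had folds of 9.41 and 30.7.

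Of 28 genes that the study names, 9 (32.1%) had a bivalent peak, against 2.95% of all coding genes. In wt+TNFα 7 of the 9 had H3K4me3 only and 2 both marks, against 19.6% and 64.5% of all bivalent peaks. The study named or labelled these genes from its own RNA and ChIP-seq comparisons with TNFα, so their count is no independent evidence of a direction. Cdkn2a, the locus that encodes 2 senescence proteins in different reading frames, had H3K4me3 widths of 1332 bp and 1538 bp and folds of 27.3 and 34.5. Its wt H3K27me3 peak of 29407 bp covered the whole H3K4me3 peak, and a wt+TNFα peak of 25291 bp covered 34.2% of it. Both H3K27me3 peaks spanned the whole annotated gene, so the state H3K4me3 only is that of the H3K4me3 peak and not of the gene. The folds of these peaks, each within its own library, were 3.86 and 4.84. Wwtr1, which encodes the YAP partner TAZ, had H3K4me3 widths of 762 bp and 1789 bp and folds of 8.0 and 30.0. Mapk11, a p38 kinase, had widths of 650 bp and 1469 bp, and Cbx6, a Polycomb subunit, of 691 bp and 1389 bp. These 3 and Slc25a4 had no H3K27me3 left, whereas Man2a2 kept a cover of 47%. Cnn3, a calponin, and Fmnl2, a formin, kept both marks.

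The same rule applied to wt+TNFα gave 718 bivalent peaks of 11565 on the autosomes (6.21%). Of these 431 (60.0%) overlapped a peak that was bivalent in wt, and 287 did not. Of those 287, 150 had at least 50% of their bases under H3K27me3 only in wt, 118 under H3K4me3 only, 7 under both and 12 under neither. The number of bivalent peaks was thus close in both conditions, while the wt sites and the wt+TNFα sites overlapped in part.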

How the data were processed

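ChIP-seq peaks of H3K4me3 and H3K27me3 from mouse colonic organoids with and without TNFα were used. According to the methods, the authors aligned reads to GRCm38/mm10 with BWA 2.2, dropped duplicate reads (SAMtools 1.11) and reads in blacklisted regions, and ran MACS2 with the input as control, version 2.1.0 in the processing notes and another in the reporting summary. The deposited lists give each peak's fold enrichment, a ratio of ChIP signal to local background, and its p-value and q-value as −log10. Both were computed per library, so folds were compared between conditions through ranks or set side by side. Reads and input were not analysed here, and the depth behind a peak is unknown.

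Peaks of each list were merged, and the share of each wt H3K4me3 peak under each other list was computed on the 19 autosomes, with a limit of 50%. Genes came from GENCODE vM21 (55450 genes), and a promoter was 1000 bp on each side of any transcript start, with an overlap of 1 bp. Sequences came from RefSeq's GRCm38.p6 genome, in windows of 500 bp at the summit. The rule and lists were chosen with earlier results of these data known. Named genes were members of the fixed lists, widest peak first, the 8 coding genes per state with the highest wt H3K27me3 fold, wt H3K4me3 fold or wt width, the 8 strongest and 8 widest of all, and genes the study names, of which not all are printed. With 1 library per mark and condition no test was run. In simulated lists, with cover planted clearly above or below the limit of 50%, the steps recovered the planted state of 937 of 937 peaks. This checks the code and says nothing of peaks near the limit. Alternatives changed the cover limit, the H3K27me3 and H3K4me3 lists, the state rule and the promoter width. Calculations used Python 3.11.15, numpy 2.4.6, scipy 1.17.1, pandas 2.3.3 and samtools 1.23.1, and matplotlib 3.10.9 for plots.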

Additional observations from a re-analysis of the deposited data

Results flagged for a closer look

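The X chromosome, which the rule leaves out, carried a signal in wt+TNFα that it did not carry in wt. Of 316 wt H3K4me3 peaks there, 207 (65.5%) had at least 50% of their bases under wt+TNFα H3K27me3 peaks, against 3 (0.949%) under wt H3K27me3 peaks. On the Y chromosome 3 H3K4me3 peaks were listed in wt and 0 in wt+TNFα. It was singled out because the signal lies outside the autosomes and exceeds that of wt, and its cause was not tested.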

How the results depend on the processing

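No paired analysis was possible because each mark and condition has 1 library. The number of bivalent peaks stayed within 1.5 times of 664 in all alternatives that change it, from 515 with H3K27me3 peaks of −log10 q of at least 2 to 754 with a cover of at least 25%. Shares were compared with the 95% Wilson interval of the reported share, which covers counting over peaks only. Of 44 values under an alternative 34 stayed within these limits and 10 moved. Some of the 34 had little or no room to move. The number of bivalent peaks is fixed at 664 where only wt+TNFα lists change, and the share with neither mark was at most 0.331%. With a cover of at least 25%, H3K27me3 only took 13.1%. With at least 75%, 57.6% kept both marks and 23.2% had H3K27me3 only. With H3K27me3 peaks of −log10 q of at least 2, 16.3% had H3K4me3 only. With the wt+TNFα H3K27me3 list limited by −log10 q to the covered length of the wt list, 58.3% kept both marks and 25.8% had H3K4me3 only. With an overlap of 1 bp, 70.3% kept both marks and 15.1% had H3K4me3 only. The share at a promoter was 94.1% with 2000 bp on each side and 89.6% with protein-coding genes alone. The order of the 3 states changed under a cover of at least 75% and with the q limit of 2, where H3K27me3 only was the second most common state. The genes of the developmental lists at bivalent peaks numbered 31 with 500 bp and 37 with 2000 bp. No value can be set against replicate error.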
